A study of Gossypium hirsutum with 24 samples.

Results

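Transcript levels of nitrogen metabolism enzymes were followed in cotton leaves fed upon by larvae of the cotton bollworm (CBW, Helicoverpa armigera). The genes were chosen by name: they are the probe sets of the Affymetrix Cotton GeneChip whose protein name, in the copy of the study's first supplementary table used here, contains asparagine synth, glutamate dehydrogenase or glutamine synthetase. A total of 12 probe sets met this rule, of the 23972 on the array and the 15615 with values at 1 time or more. Of them, 6 carry an asparagine synthetase name and 6 a glutamate dehydrogenase name, and no held row carries a glutamine synthetase name. They match 6 genes of Gossypium raimondii, a diploid cotton species to whose genes the study mapped the probe sets. The copy holds 1028 rows of the table in falling order of its ratio at 48 h, and leaves out 6783. The contrast at 48 h therefore chose these probe sets, and its values are given below as a description with no test. By the intensities analysed here, the member with the smallest log2 difference at 48 h had 1.85 (Ghi.8208.1.S1_s_at), and the last held row, which is no member, had 1.34.

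Plants of Gossypium hirsutum cv. CCRI12, an allotetraploid cultivar, were used with 6 to 7 fully expanded true leaves, 5 to 6 weeks after sowing. CBW-damaged plants carried third-instar larvae that fed continuously until harvest, and control plants were undamaged and kept under the same conditions. Whole leaves were taken at 6, 12, 24 and 48 h after feeding began, with 3 arrays of each group at each time and 24 in all, and each array stands for a pool of 3 plants. There was no group with mechanical wounding alone. Signal intensities are the authors' MAS5 values on a linear scale, and the median intensity of an array lay between 358 and 399. The p-values weigh a difference against the spread between pools of plants, estimated over all 8 groups of 3 arrays.

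Asparagine synthetase moves the amide nitrogen of glutamine onto aspartate. The product, asparagine, carries much nitrogen for its carbon and serves plants as a store and as a form in which nitrogen travels through the phloem and xylem. Glutamate dehydrogenase interconverts glutamate with 2-oxoglutarate and ammonium. The mitochondrial, NAD-dependent enzyme of plants is known chiefly for breaking down glutamate, and its genes, like some asparagine synthetase genes, are known to respond to low sugar, darkness and leaf ageing. NADP-specific glutamate dehydrogenases are best known from bacteria, fungi and algae.

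The names of the 12 probe sets come from best matches to plant proteins, which are of Gossypium hirsutum itself for 4 of them and of other plants for 8. Gra.1559.1.A1_at and Gra.2231.1.S1_s_at match Gorai.001G117000.1 and are called glutamine-dependent asparagine synthase 1. Ghi.10655.1.S1_s_at, Gra.1614.2.S1_x_at, Ghi.1436.1.S1_at and Ghi.1436.1.A1_s_at match Gorai.006G105200.1 and are called asparagine synthetase. Ghi.5259.1.A1_x_at, Ghi.8208.1.S1_s_at and Ghi.8208.2.A1_s_at match Gorai.003G110800.1, glutamate dehydrogenase 2, and Ghi.6500.1.S1_at matches Gorai.004G244400.1, a putative glutamate dehydrogenase. GhiAffx.25253.1.S1_at (Gorai.008G258200.1) and GhiAffx.5714.1.A1_at (Gorai.004G129900.1) are called putative NADP-specific glutamate dehydrogenases. For these last 2 the table gives neither a KEGG enzyme nor an InterPro domain, whereas the other 10 have both, so their names rest on less. Probe sets ending in _s_at or _x_at can take up more than 1 transcript, and the 2 subgenome copies of a gene in this tetraploid cannot be told apart. Probe sets of a gene share its transcripts and are not independent. Intensities differ between probe sets for reasons other than transcript level, so only values of the same probe set are compared between groups.

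After 6 h of CBW feeding, 5 of the 6 glutamate dehydrogenase probe sets were called higher in CBW-damaged than in control leaves and none of the 5 asparagine synthetase probe sets with values was. After 12 h all 6 asparagine synthetase probe sets were called higher. At 6 h, 5 of the 11 members with values were called higher, against 26.1% of all 14627 probe sets tested, and none lower, against 36.6%. At 12 h, 11 of 12 were called higher, against 20.1% of 14403, and at 24 h all 12 were, against 20.2% of 14570. No member was called lower at 12 h, against 24.8%, or at 24 h, against 29.3%. The median log2 difference, CBW minus control, over the members was 0.96 at 6 h, 3.80 at 12 h and 3.52 at 24 h. Over all probe sets tested it was -0.13, -0.04 and -0.08. The members came from rows held for a high ratio at 48 h, which can favour higher values at the other times too. The shares and medians over all probe sets are therefore not a like comparison. Called means an adjusted p of 0.05 or less in limma's moderated test, with Benjamini-Hochberg adjustment over all probe sets tested at that time, and SE is the standard error of a difference in that fit. In bulk leaves, more RNA of a gene per cell and more cells that hold it cannot be told apart.

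Both Gorai.001G117000.1 probe sets were called higher in CBW-damaged leaves at 12 and 24 h. At 6 h Gra.1559.1.A1_at had intensities of 98.6, 154 and 40.5 in CBW-damaged leaves, against 47.6, 171 and 199 in control leaves. The groups overlapped, and the log2 difference of -0.47 (limma SE 0.533, adjusted p = 0.459) was not called. By 12 h this probe set had 5617, 3963 and 4108.5 in CBW-damaged leaves, against 83.8, 38.7 and 52.7 in control leaves. Every CBW array thus lay far above every control array, with a log2 difference of 6.34 (limma SE 0.533, adjusted p = 3.28e-08). At 24 h the values were 1291, 1040.2 and 1301 in CBW-damaged leaves, against 55.0, 69.1 and 27.6 in control leaves, a log2 difference of 4.68 (limma SE 0.533, adjusted p = 1.12e-06). The CBW arrays at 24 h lay below those at 12 h and above all control arrays of 24 h. At 48 h the values were 1937, 5044 and 3733 in CBW-damaged leaves, against 54.0, 35.6 and 76.9 in control leaves, a log2 difference of 5.97 (SE 0.533). CBW replicate 1 was the lowest of its group at 48 h in 10 of the 12 members, this one among them, and it still lay above the 3 control arrays.

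Gra.2231.1.S1_s_at, the second probe set of that gene, has no values at 6 h. Its intensities at 12 h were 1098, 808 and 873 in CBW-damaged leaves, against 13.0, 5.33 and 6.52 in control leaves, and the log2 difference was 6.90 (limma SE 0.467, adjusted p = 2.91e-08). At 24 h they were 189, 225 and 215 in CBW-damaged leaves, against 5.43, 18.1 and 6.43 in control leaves, with a log2 difference of 4.61 (limma SE 0.467, adjusted p = 1.52e-06). The 48 h values were 334, 1197 and 699 in CBW-damaged leaves, against 10.3, 7.63 and 11.3 in control leaves, a log2 difference of 6.09 (SE 0.467). The groups were apart on all these occasions. The control intensities were among the dimmest of their arrays, within the lowest 0.391% of values, so that the size of these differences depends on how dim values are treated. With every intensity under the 20th percentile of its array raised to that percentile, the log2 differences for 12, 24 and 48 h were 2.99, 0.81 and 2.46, and those at 12 and 24 h were still called. The same treatment gave Gra.1559.1.A1_at 5.29, 3.33 and 4.81 at 12, 24 and 48 h.

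**Figure D1:**
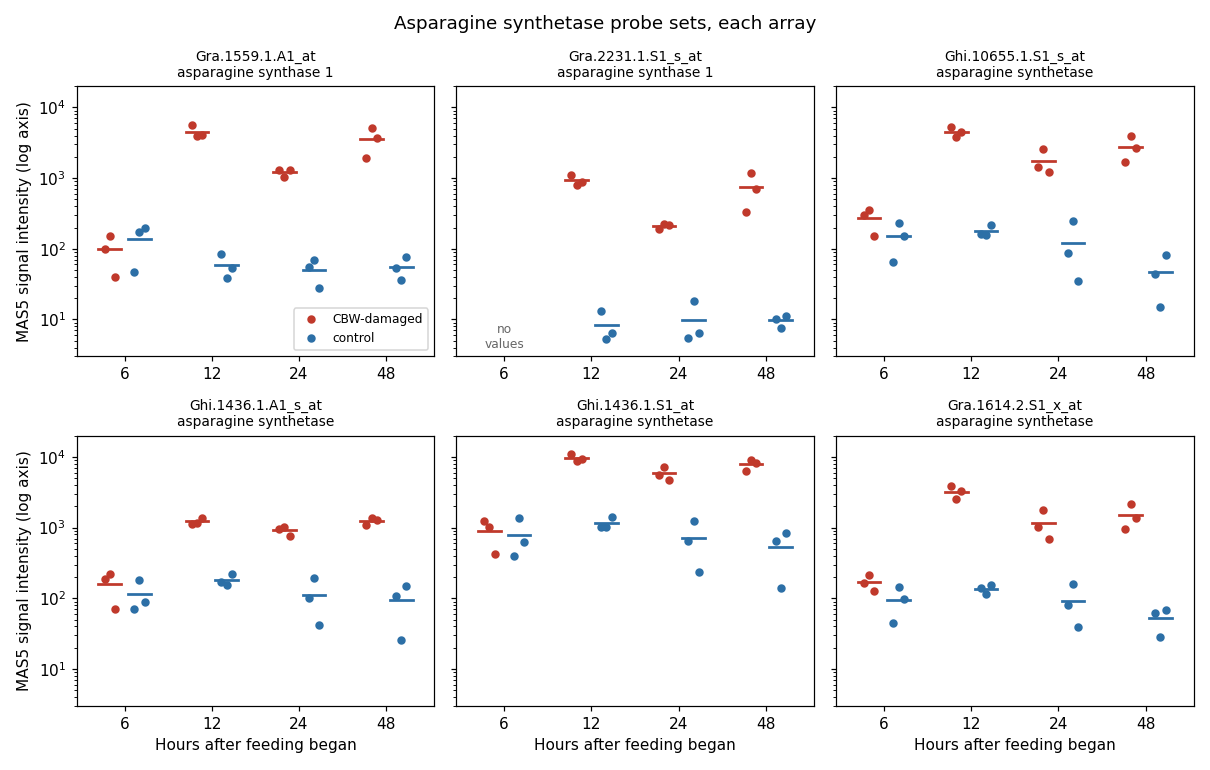
MAS5 signal intensity (log axis) of the 6 asparagine synthetase probe sets on each array at 6, 12, 24 and 48 h after feeding began. Points are arrays, 3 per group, bars are means, and at each time CBW-damaged leaves are on the left and control leaves on the right. The groups overlap at 6 h and are apart at 12, 24 and 48 h in every probe set with values.

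Of the Gorai.006G105200.1 probe sets, Ghi.10655.1.S1_s_at had intensities of 303, 359 and 154 in CBW-damaged leaves, against 65.1, 229 and 154 in control leaves at 6 h. The 12 h values were 5247, 3792 and 4536 in CBW-damaged leaves, against 164, 156.5 and 216 in control leaves. CBW-damaged leaves were above control leaves on every array at 12 h and not at 6 h, and the log2 difference was 4.66 (limma SE 0.63, adjusted p = 8.5e-06) at 12 h and 0.96 (limma SE 0.63, adjusted p = 0.194) at 6 h. At 24 h it had 1448, 2622 and 1217 in CBW-damaged leaves, against 86.5, 245 and 35.4 in control leaves, a log2 difference of 4.20 (limma SE 0.63, adjusted p = 2.35e-05), and at 48 h 1685, 3959 and 2626 in CBW-damaged leaves, against 44.6, 15.2 and 80.7 in control leaves, a log2 difference of 6.10 (SE 0.63). Control replicate 3 was the lowest array of its group at 24 h and control replicate 2 at 48 h, and all CBW arrays were above all control arrays at both times. With dim values raised as above, the difference was 3.46 at 24 h and 4.45 at 48 h.

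Ghi.1436.1.S1_at had 1223, 1004 and 429 in CBW-damaged leaves, against 398, 1362.5 and 631 in control leaves at 6 h, a log2 difference of 0.21 (limma SE 0.6, adjusted p = 0.78). Its 95% interval ran from -1.05 to 1.46, so that a rise of up to 1.46 on the log2 scale was within the error. Its 12 h values were 11000.2, 8879.8 and 9434 in CBW-damaged leaves, against 1021, 1012 and 1431 in control leaves, a log2 difference of 3.09 (limma SE 0.6, adjusted p = 0.000353). The 24 h values were 5614, 7313 and 4709.5 in CBW-damaged leaves, against 644, 1224 and 236 in control leaves, a log2 difference of 3.34 (limma SE 0.6, adjusted p = 0.000148). From 12 h onward the lowest CBW array lay above the highest control array of its time. At 48 h the probe set had 6271, 9154 and 8254 in CBW-damaged leaves, against 637, 141 and 829 in control leaves, and the log2 difference was 4.21 (SE 0.6).

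The remaining pair of probe sets of Gorai.006G105200.1 were likewise called at 12 h and not at 6 h. Gra.1614.2.S1_x_at had 166, 216 and 126 in CBW-damaged leaves, against 45.1, 143 and 98.5 in control leaves at 6 h and 3836, 2574 and 3278 in CBW-damaged leaves, against 138, 114 and 153 in control leaves at 12 h. The CBW arrays of this probe set were apart from the control arrays at 12 h, when the log2 difference was 4.57 (limma SE 0.486, adjusted p = 5.47e-07), against 0.94 (limma SE 0.486, adjusted p = 0.0993) at 6 h. At 6 h this probe set was called when control replicate 2 of 6 h was left out, with a log2 difference of 1.31 and a limma adjusted p = 0.0391. Its log2 differences were 3.77 at 24 h and 4.84 at 48 h, or 3.04 and 3.57 with dim values raised. Ghi.1436.1.A1_s_at had 188, 221 and 71.2 in CBW-damaged leaves, against 70.1, 184 and 90.0 in control leaves at 6 h and 1139.8, 1177 and 1348 in CBW-damaged leaves, against 169, 152 and 220.1 in control leaves at 12 h. Its log2 difference was 0.45 (limma SE 0.569, adjusted p = 0.504) at 6 h and 2.77 (limma SE 0.569, adjusted p = 0.000605) at 12 h, and it was 3.28 at 24 h and 4.04 at 48 h. Among the 4 probe sets of the gene, the log2 difference at 12 h thus spanned 2.77 to 4.66, although they are matched to 1 gene.

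In CBW-damaged leaves the asparagine synthetase means were highest at 12 h in 5 of the 6 probe sets and at 48 h in Ghi.1436.1.A1_s_at. The 12 h and 48 h arrays of CBW-damaged leaves overlapped in every asparagine synthetase probe set except Gra.1614.2.S1_x_at, where all 12 h arrays were above all 48 h arrays, so that the order of these 2 times does not go beyond the spread in the others. The 6 h level was the lowest, and its arrays lay apart from those of the next level in all 5 probe sets with values at 6 h. In control leaves the arrays of neighbouring times in the order of their means overlapped throughout.

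Glutamate dehydrogenase 2, Gorai.003G110800.1, was higher in CBW-damaged leaves from the first harvest on. Ghi.5259.1.A1_x_at had intensities of 2280.3, 1889 and 1304 in CBW-damaged leaves, against 267, 285 and 226 in control leaves at 6 h, a log2 difference of 2.79 (limma SE 0.252, adjusted p = 3.43e-08). The 12 h values were 2782, 2457 and 1823 in CBW-damaged leaves, against 262, 357 and 295 in control leaves, a log2 difference of 2.94 (limma SE 0.252, adjusted p = 4.18e-08). The lowest CBW array was above the highest control array at both times. At 24 h it had 1438, 1557 and 1080.1 in CBW-damaged leaves, against 291, 251 and 181 in control leaves, a log2 difference of 2.50 (limma SE 0.252, adjusted p = 2.72e-07), and at 48 h 1319.5, 1561 and 1383 in CBW-damaged leaves, against 348, 172 and 306 in control leaves, a log2 difference of 2.43 (SE 0.252). Control intensities of this probe set stayed between 172 and 357 over all 12 control arrays, and CBW intensities between 1080.1 and 2782 over all 12 CBW arrays, so that the groups did not overlap even across times.

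The other probe sets of glutamate dehydrogenase 2 gave like values. Ghi.8208.2.A1_s_at had 1507, 1132 and 779.7 in CBW-damaged leaves, against 132, 177 and 177 in control leaves at 6 h, a log2 difference of 2.78 (limma SE 0.311, adjusted p = 4.66e-07), and 2509.5, 1501 and 2288 in CBW-damaged leaves, against 333, 187 and 147 in control leaves at 12 h, a log2 difference of 3.29 (limma SE 0.311, adjusted p = 1.27e-07). Ghi.8208.1.S1_s_at had 888, 725 and 582 in CBW-damaged leaves, against 96.0, 130.2 and 164 in control leaves at 6 h, a log2 difference of 2.50 (limma SE 0.276, adjusted p = 3.76e-07), and 1485, 843 and 1283 in CBW-damaged leaves, against 224, 138 and 103 in control leaves at 12 h, a log2 difference of 2.99 (limma SE 0.276, adjusted p = 9.56e-08). The groups of both probe sets were apart at all 4 times. At 24 h the log2 differences were 2.58 and 2.07 in that order, and at 48 h 2.33 and 1.85. Over the 3 probe sets of the gene the span of the log2 difference was 2.50 to 2.79 at 6 h and 2.94 to 3.29 at 12 h, and it was 2.07 to 2.58 at 24 h and 1.85 to 2.43 at 48 h.

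Ghi.6500.1.S1_at, the putative glutamate dehydrogenase of Gorai.004G244400.1, rose at 6 h and had a larger difference at 12 h. At 6 h it had 619, 1764 and 452 in CBW-damaged leaves, against 89.4, 76.9 and 118 in control leaves, a log2 difference of 3.08 (limma SE 0.58, adjusted p = 0.000154). CBW replicate 2 stood above the other CBW arrays of 6 h, and all 3 CBW arrays were above the control arrays. By 12 h its values were 4412, 2256 and 3430.4 in CBW-damaged leaves, against 137, 20.1 and 35.3 in control leaves, a log2 difference of 6.14 (limma SE 0.58, adjusted p = 1.25e-07). Control replicates 2 and 3 of 12 h were dim, and with values under the 20th percentile of the array raised to it the log2 difference at 12 h was 4.73, still called. All control arrays of 6, 24 and 48 h also lay under that percentile. The size of the differences at those times in this probe set therefore also depends on how dim values are treated. At 24 h it had 1283, 1238 and 812 in CBW-damaged leaves, against 81.2, 78.2 and 94.4 in control leaves, a log2 difference of 3.69 (limma SE 0.58, adjusted p = 3.78e-05), and at 48 h 571, 1751 and 1151 in CBW-damaged leaves, against 41.1, 96.2 and 44.6 in control leaves, a log2 difference of 4.22 (SE 0.58). Of its CBW levels, the 12 h arrays lay above all those of 48 h, next in order, and the arrays of 48, 24 and 6 h overlapped in turn.

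Of the probe sets named as NADP-specific glutamate dehydrogenases, 1 was called at 6 and 12 h and the other was not. GhiAffx.25253.1.S1_at had 2036, 2867 and 4386 in CBW-damaged leaves, against 217, 276 and 122 in control leaves at 6 h, a log2 difference of 3.92 (limma SE 0.668, adjusted p = 5.61e-05). The 12 h values were 1085, 774 and 1482 in CBW-damaged leaves, against 152.5, 25.9 and 41.4 in control leaves, and the log2 difference was 4.30 (limma SE 0.668, adjusted p = 3.9e-05). The 24 h values were 1134, 938 and 886 in CBW-damaged leaves, against 136, 70.9 and 13.8 in control leaves, and the log2 difference was 4.26 (limma SE 0.668, adjusted p = 3.66e-05). The groups were apart each time, and with dim values raised as above the differences at 12 and 24 h were 3.09 and 2.96. At 48 h it had 1627, 1624 and 1578 in CBW-damaged leaves, against 27.7, 14.9 and 46.1 in control leaves, a log2 difference of 5.91 (SE 0.668), or 3.76 with dim values raised. Its CBW level was highest at 6 h, where the 3 arrays lay above those of 48 h, the next in order.

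GhiAffx.5714.1.A1_at was not called at the first 2 times. It had 435, 473 and 771 in CBW-damaged leaves, against 660.2, 645 and 419.7 in control leaves at 6 h, and 116, 95.3 and 125 in CBW-damaged leaves, against 232, 83.0 and 116 in control leaves at 12 h. The groups overlapped at both times, and the log2 differences were -0.06 (limma SE 0.37, adjusted p = 0.902) at 6 h and -0.23 (limma SE 0.37, adjusted p = 0.646) at 12 h, with 95% intervals from -0.83 to 0.72 and from -1.01 to 0.54. At 24 h it had 795, 661 and 626 in CBW-damaged leaves, against 473, 293 and 146 in control leaves, a log2 difference of 1.34 (limma SE 0.37, adjusted p = 0.00548), and at 48 h 774, 707 and 774 in CBW-damaged leaves, against 183, 109.6 and 170.0 in control leaves, a log2 difference of 2.32 (SE 0.37). At 24 and 48 h all CBW arrays were above all control arrays. The level of this probe set was low at 12 h in both CBW-damaged and control leaves relative to 6 h.

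**Figure D2:**
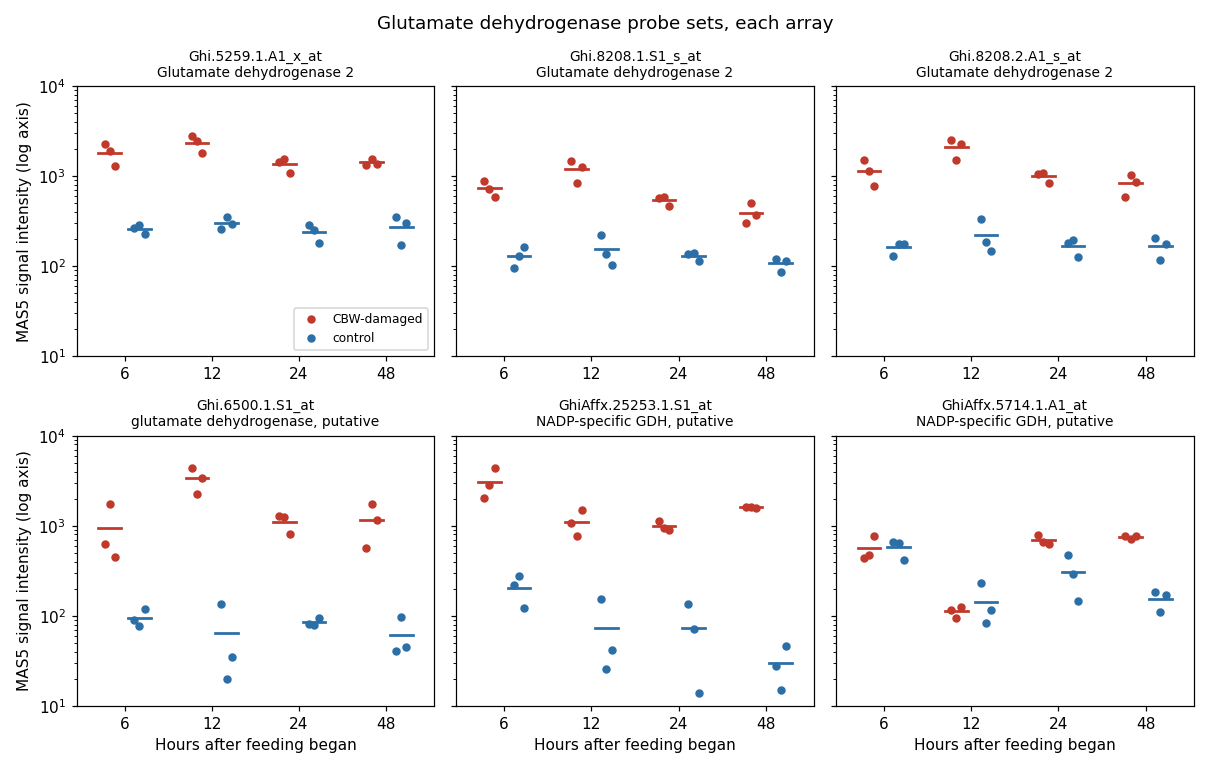
MAS5 signal intensity (log axis) of the 6 glutamate dehydrogenase probe sets on each array at 6, 12, 24 and 48 h after feeding began. Points are arrays, 3 per group, bars are means, and at each time CBW-damaged leaves are on the left and control leaves on the right. The groups are apart at every time except in GhiAffx.5714.1.A1_at at 6 and 12 h.

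Counted by arrays, all 3 CBW arrays lay above all 3 control arrays in 5 of 11 members at 6 h, against 28.0% of all probe sets tested then. The count was 11 of 12 at 12 h, against 23.5%, and 12 of 12 at 24 h, against 23.6%. At 48 h it was 12 of 12, against 31.1%. The count at 48 h follows from how the members were chosen, which can also favour high counts at the other times. The smallest 2-sided p that an exact permutation test allows with 3 arrays in each group is 0.1, so the calls rest on limma's spread estimate over all 8 groups.

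Whether the response itself changed with time was tested as the CBW minus control difference at 12 h less that at 6 h. It was called higher in 6 of the 11 members with values at both times, against 18.0% of 13807 probe sets, and in none was it called lower, against 13.0%. These 6 were the 5 asparagine synthetase probe sets with values at 6 h, and Ghi.6500.1.S1_at. In any change of response between times, hours of feeding, the damage that had built up and time of day cannot be told apart. In Gra.1559.1.A1_at the response was larger by 6.81 (limma SE 0.753, adjusted p = 6.25e-06), in Ghi.10655.1.S1_s_at by 3.71 (limma SE 0.891, adjusted p = 0.00433) and in Gra.1614.2.S1_x_at by 3.63 (limma SE 0.688, adjusted p = 0.000778). In Ghi.1436.1.S1_at it was larger by 2.89 (limma SE 0.848, adjusted p = 0.0152), and in Ghi.6500.1.S1_at by 3.06 (limma SE 0.82, adjusted p = 0.0089). In Ghi.1436.1.A1_s_at it was larger by 2.32 (limma SE 0.805, adjusted p = 0.0351), and this call was lost when CBW replicate 3 or control replicate 2 of 6 h, any CBW array of 12 h, or control replicate 1 or 2 of 12 h was left out, with adjusted p between 0.0503 and 0.103 and a difference between 1.81 and 2.37.

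For glutamate dehydrogenase 2 the change in response between 6 and 12 h was 0.16 in Ghi.5259.1.A1_x_at, 0.49 in Ghi.8208.1.S1_s_at and 0.52 in Ghi.8208.2.A1_s_at, with adjusted p from limma of 0.771, 0.36 and 0.392. The 95% intervals ran from -0.59 to 0.90, from -0.33 to 1.30 and from -0.40 to 1.44, so that a larger response at 12 h of up to 1.44 on the log2 scale was within the error. GhiAffx.25253.1.S1_at had 0.37 (limma SE 0.944, adjusted p = 0.792) and GhiAffx.5714.1.A1_at -0.17 (limma SE 0.523, adjusted p = 0.827). The size of change was not compared between genes by a test.

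Between 12 and 24 h the response was called lower in 1 of the 12 members, Gra.2231.1.S1_s_at, with a change of -2.29 (limma SE 0.661, adjusted p = 0.0357), against 6.47% of 13837 probe sets. The call was lost without any 1 of the 3 CBW arrays of 12 h, control replicate 2 or 3 of 12 h, any of the 3 CBW arrays of 24 h or control replicate 2 of 24 h, with adjusted p between 0.0576 and 0.0776 and a change between -2.39 and -1.76. The other asparagine synthase 1 probe set, Gra.1559.1.A1_at, had -1.67 (limma SE 0.753, adjusted p = 0.16). Ghi.6500.1.S1_at had -2.45 (limma SE 0.82, adjusted p = 0.0579), and GhiAffx.5714.1.A1_at had 1.57 (limma SE 0.523, adjusted p = 0.0568). Gra.1559.1.A1_at was called lower with dim values raised, at -1.95, and with a pseudocount of 32, at -1.74, and Gra.1614.2.S1_x_at with dim values raised, at -1.52. Ghi.6500.1.S1_at and GhiAffx.5714.1.A1_at were not called in the fit of all arrays without a block for replicate number. Ghi.6500.1.S1_at was called lower without CBW replicate 2 of 6 h, control replicate 1 of 12 h or control replicate 2 of 48 h, at -3.24 and -2.45. GhiAffx.5714.1.A1_at was called higher without control replicate 2 of 12 h, control replicate 1 of 24 h or control replicate 2 of 48 h, at 1.57 to 1.97. It was also called higher with dim values raised, at 1.64, and with a pseudocount of 32, at 1.43. Ghi.8208.1.S1_s_at was called lower without control replicate 1 of 12 h, at -1.22. On all arrays and without that block no member was called higher, against 5.51% of probe sets. With the block, GhiAffx.5714.1.A1_at was called higher, at 1.57, and Ghi.6500.1.S1_at lower, at -2.45.

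**Figure D3:**
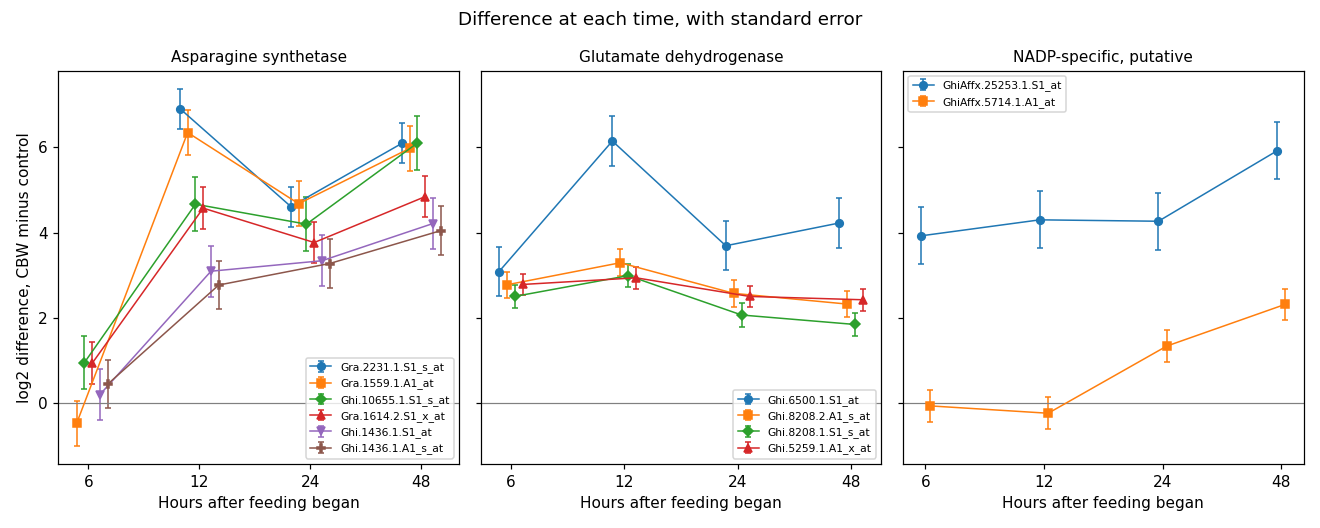
Difference in log2 intensity, CBW minus control, of each probe set at 6, 12, 24 and 48 h after feeding began, in 3 panels by enzyme name. Points are differences of means of 3 arrays per group, bars are standard errors, and the 48 h values are those that chose the members. Asparagine synthetase differences lie between -0.47 and 0.96 at 6 h and between 2.77 and 6.90 at 12 h, and those of the glutamate dehydrogenases in the middle panel lie between 2.50 and 3.08 at 6 h.

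In undamaged leaves the levels of most members did not pass the test between times. From 6 to 12 h, 2 of 11 were called lower, against 23.3% of 13807 probe sets, and none higher, against 20.1%. Both were NADP-specific by name. GhiAffx.5714.1.A1_at had control intensities of 660.2, 645 and 419.7 at 6 h and 232, 83.0 and 116 at 12 h, and its level fell by 2.11 on the log2 scale (limma SE 0.37, adjusted p = 0.000129). The arrays of these 2 times did not overlap. GhiAffx.25253.1.S1_at had 217, 276 and 122 at 6 h and 152.5, 25.9 and 41.4 at 12 h, and fell by 1.83 (limma SE 0.668, adjusted p = 0.0333). Its call was lost without control replicate 1 or 2 of 6 h or control replicate 2 or 3 of 12 h, with adjusted p between 0.0784 and 0.164 and a change between -1.75 and -1.29, and with dim values raised, at -0.62.

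From 12 to 24 h in undamaged leaves, GhiAffx.5714.1.A1_at was called higher, with control intensities of 473, 293 and 146 at 24 h and a change of 1.06 (limma SE 0.37, adjusted p = 0.0292). It was the 1 member of 12 so called, against 20.4% of 13837 probe sets, and no member was called lower, against 18.6%. This call was lost without control replicate 2 or 3 of 12 h or control replicate 1 or 2 of 24 h, with adjusted p between 0.0716 and 0.183 and a change between 0.66 and 1.01, and in a fit on the arrays of these times alone, with an adjusted p = 0.071. Time after the onset of feeding and time of day cannot be told apart in these control leaves. No asparagine synthetase probe set was called in these 2 comparisons of undamaged leaves. On the log2 scale the change spanned -1.08 to 0.76 from 6 to 12 h in the 5 with values at 6 h, and -0.996 to 0.16 from 12 to 24 h in all 6.

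Probe sets of 1 gene moved closely together over the 24 arrays. Over the 9 pairs from the same gene, among the 11 members with values on all arrays, Pearson's r of log2 intensity lay between 0.948 and 0.995. Over the 46 pairs from different genes it lay between 0.135 and 0.956, with a median of 0.779, and the lowest values were those of GhiAffx.5714.1.A1_at. These correlations describe arrays that share the treatment groups. Replicates also deviated together across members: control replicate 2 of 48 h was the lowest of its group in 11 of 12 members, and control replicate 3 and CBW replicate 3 of 24 h were each lowest in 10 of 12. Control replicate 2 and CBW replicate 2 of 12 h were lowest in 9 and 10 of 12.

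By likeness of course, the nearest probe sets were sought for 1 asparagine synthetase and 1 glutamate dehydrogenase probe set among 13330 that are no members and have values on all 24 arrays. For Ghi.1436.1.S1_at the highest Pearson's r were 0.959 for Gra.726.1.A1_s_at, 0.951 for Ghi.1324.1.S1_at and 0.947 for Ghi.3952.1.A1_s_at, followed by GhiAffx.2768.1.S1_at at 0.943 and Ghi.8839.2.S1_s_at at 0.933. Ghi.1324.1.S1_at is named indole-3-acetic acid-amido synthetase GH3.17, an enzyme that joins the hormone auxin to amino acids, and the others have no name in the sources used here. For Ghi.5259.1.A1_x_at they were 0.978 and 0.975 for Ghi.7171.1.S1_at and Ghi.7171.1.A1_at, both without a name, 0.975 for Ghi.3229.1.A1_at, named inorganic pyrophosphatase 2, 0.970 for Ghi.7942.3.A1_a_at, without a name, and 0.968 for GhiAffx.21532.1.S1_at, an uncharacterized protein.

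The KEGG column of the same table gives the asparagine synthase enzyme also to 3 held rows of another name, aluminum induced protein with YGL and LRDR motifs. They are not counted among the members. Ghi.10753.1.S1_at had 9417, 11701 and 7809 in CBW-damaged leaves, against 1559, 2953 and 3747 in control leaves at 6 h, and 12329, 10123.5 and 12227 in CBW-damaged leaves, against 817, 287 and 473 in control leaves at 12 h. All CBW arrays were above all control arrays at both times, with log2 differences of 1.88 (limma SE 0.389, adjusted p = 0.000387) at 6 h and 4.58 (limma SE 0.389, adjusted p = 3.7e-08) at 12 h, and it was 1.48 at 24 h. Its control level was lower at 12 h than at 6 h, by 2.43 on the log2 scale with a limma adjusted p = 4.87e-05. Ghi.7985.1.S1_s_at and GraAffx.30883.1.S1_at, which match 1 gene, had smaller log2 differences at 6, 12 and 24 h. These were -0.27, 0.80 and 0.98 in Ghi.7985.1.S1_s_at, and 0.06, 0.53 and 0.81 in GraAffx.30883.1.S1_at. Of the 3, limma called 1 higher at 6 h, 2 at 12 h and 3 at 24 h, against 26.1%, 20.1% and 20.2% of all probe sets tested. These rows too were held for a high ratio at 48 h, so all probe sets are not a like comparison.

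Other enzymes and transporters of nitrogen metabolism were taken by name from the same 1028 held rows, so that they too were chosen by the ratio at 48 h. This list has 12 probe sets of 11 genes. At 6 h, 11 of 11 with values were called higher, against 26.1% of all probe sets. At 12 h 8 of 10 were, against 20.1%, and at 24 h 10 of 11, against 20.2%. None was called lower at 6, 12 or 24 h, against 36.6%, 24.8% and 29.3%. With dim values raised 9, 8 and 9 were called higher. The shares over all probe sets given here are from the fit with dim values not raised. The list's median log2 difference for 6, 12 and 24 h was 2.30, 1.50 and 1.98. Nitrogen genes that were not raised at 48 h could not enter the list. Its counts and medians therefore do not stand for nitrogen metabolism as a whole, and all probe sets are not a like comparison.

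Arginine decarboxylase and ornithine decarboxylase open the routes to polyamines, which hold nitrogen. The arginine decarboxylase Ghi.954.1.A1_s_at had 3436, 5467 and 3481 in CBW-damaged leaves, against 49.6, 58.0 and 87.4 in control leaves at 12 h, a log2 difference of 6.00 (limma SE 0.692, adjusted p = 1.41e-06), and its log2 difference was 3.19 at 6 h, when the groups overlapped, and 5.16 at 24 h. A second arginine decarboxylase, Ghi.2796.1.S1_s_at, had 2.42 (limma SE 0.249, adjusted p = 1.69e-07) at 6 h, 0.92 at 12 h and 1.98 at 24 h. The lysine/ornithine decarboxylase Ghi.9106.1.S1_at had 3097, 2989 and 1667 in CBW-damaged leaves, against 85.6, 66.7 and 39.8 in control leaves at 6 h, and its log2 difference was 5.35 (limma SE 0.319, adjusted p = 2.27e-10). It was 3.23 at 12 h and 3.33 at 24 h. Glutamate decarboxylase, which makes gamma-aminobutyric acid from glutamate, was measured by Ghi.7536.1.S1_s_at, with 2.17, 1.14 and 1.28 at 6, 12 and 24 h. All of these were called, but that of Ghi.7536.1.S1_s_at at 12 h was lost without CBW replicate 3 or control replicate 1 or 3 of 12 h, and at 24 h without control replicate 3 of 24 h, with a difference between 0.98 and 1.09.

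Aspartate aminotransferase, which exchanges amino groups between glutamate and aspartate, was measured by 2 probe sets of 1 gene. Ghi.5700.1.A1_at had log2 differences of 1.19, 1.82 and 1.82 at 6, 12 and 24 h, and Ghi.7999.1.S1_at had 1.77, 2.09 and 1.88, all called. Ghi.7999.1.S1_at is dim, and with dim values raised it had 0.41, 1.01 and 0.45 at 6, 12 and 24 h, still called. Pyrroline-5-carboxylate synthetase, of proline synthesis, has values at 48 h only. There GraAffx.27366.1.S1_at had 86.3, 108 and 94.3 in CBW-damaged leaves, against 14.5, 6.18 and 15.7 in control leaves, a log2 difference of 3.10 (SE 0.364). All 6 values lie under the 20th percentile of their arrays, so with dim values raised no difference is left.

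Among transporters, nitrate transporter 1.5, which in Arabidopsis loads nitrate into the xylem, was measured by Ghi.3135.1.S1_at. It was called at 6 h with 2.70 (limma SE 0.554, adjusted p = 0.000356) and at 24 h with 3.33 (limma SE 0.554, adjusted p = 6.95e-05). At 12 h it had 785, 729 and 828 in CBW-damaged leaves, against 108, 924 and 337 in control leaves, and the log2 difference of 1.27 (limma SE 0.554, adjusted p = 0.0695) was not called, with control replicate 2 above all CBW arrays. Without that array the difference at 12 h was 2.03 and was called. Ammonium transporter 2, Ghi.3172.1.A1_at, had 1.36 at 6 h and 2.01 at 24 h, both called, and no values at 12 h. With dim values raised its differences were 0.30 at 6 h and 0.11 at 24 h, and both calls were lost. The amino acid transporters GhiAffx.24379.1.S1_at, Ghi.3652.1.S1_s_at and Ghi.1295.1.S1_s_at had 2.30, 1.01 and 2.42 at 6 h, in that order, all called. The call of Ghi.3652.1.S1_s_at at 6 h was lost with quantile normalization, with dim values raised and without any 1 of 13 arrays of the series, with a difference between 0.61 and 1.11. The calls missed at later times were those of Ghi.1295.1.S1_s_at at 12 h, with 0.67 (limma SE 0.34, adjusted p = 0.12), and Ghi.3652.1.S1_s_at at 24 h, with 0.93 (limma SE 0.424, adjusted p = 0.0756).

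**Figure D4:**
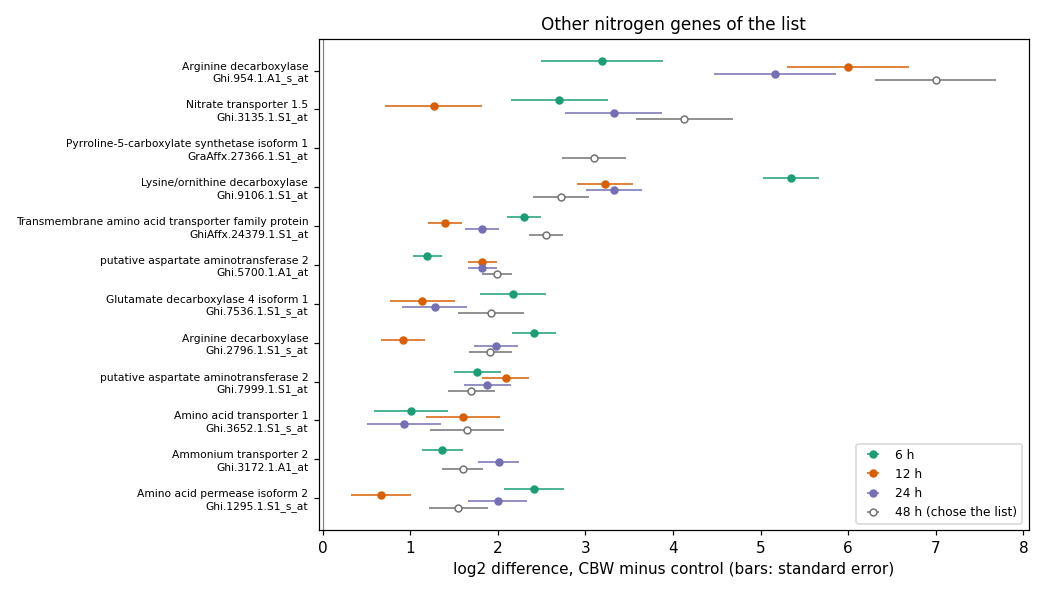
Difference in log2 intensity, CBW minus control, of the 12 other nitrogen probe sets, 1 per row, with 6, 12, 24 and 48 h as points of different colour from top to bottom in a row and standard errors as bars. All values lie above 0, between 0.67 and 6.00 at 12 h, and the open points of 48 h are those that chose the list.

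Markers of cell types were few among the held rows and were also chosen at 48 h. A marker held for its high ratio at 48 h could only be one that was higher there, so these few do not stand for their tissues as a whole. The 3 phloem protein 2 probe sets were taken by name alone as markers of the sugar-conducting tissue. Their summed intensity at 6 h was 448 to 879 in CBW-damaged leaves against 249 to 503 in control leaves. At 12 h it was 1159 to 1611 against 169.6 to 219.8. At later times the sums were 759 to 1020.1 against 199 to 488 at 24 h, and 957 to 1169 against 244 to 304 at 48 h. In CBW-damaged leaves the largest part of the sum came from GhiAffx.48251.1.S1_at at 12 h and from GhiAffx.10817.1.S1_at at the other times. Such parts also depend on how bright each probe set is. Of the 3, limma called 2 higher at 6 h and 3 at 12 and at 24 h. The shares of all probe sets called higher at 6, 12 and 24 h were 26.1%, 20.1% and 20.2%. With dim values raised, GhiAffx.48251.1.S1_at had log2 differences of 0.55, 3.03 and 0.27 at 6, 12 and 24 h, called at 12 h only. GhiAffx.24919.1.S1_at then had 0.09, 0.06 and 0.64, called at 24 h only. GhiAffx.10817.1.S1_at had -0.06, 1.71 and 1.07, called at 12 and 24 h. The 1 photosynthetic marker, a chlorophyll a-b binding protein (GraAffx.27643.2.A1_s_at), had 408 to 587 in CBW-damaged leaves against 210.3 to 482 in control leaves at 6 h, 594 to 683 against 571 to 899.9 at 12 h, 451 to 505 against 78.3 to 94.2 at 24 h, and 529 to 579.5 against 119.8 to 169 at 48 h. None of these markers was at 0 on any array. The photosynthetic marker had log2 differences of 0.60, -0.19 and 2.45 at 6, 12 and 24 h, called at 6 and 24 h and not at 12 h. Its control level changed by -3.03 on the log2 scale from 12 to 24 h. Whether these markers moved with the nitrogen genes, and their part in the values above, was not tested.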

How the data were processed

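The deposited table holds linear signal intensities, 1 column per array, which the authors computed with MAS5. To what target they scaled the arrays, and why a probe set has either 6 values or no value at a given time, are not given in the sources used here. Names, G. raimondii matches and KEGG terms were read from the first supplementary table of the study, and its ratios were not used.

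Intensities were taken to log2 with no pseudocount and no filter. The 8 group means were fitted with lmFit and eBayes (trend = TRUE) of limma 3.58.1 in R 4.3.3. The fit left 16 residual degrees of freedom where all 8 groups had values, 12 for Gra.2231.1.S1_s_at and Ghi.3172.1.A1_at, without values at 1 time, and 4 for GraAffx.27366.1.S1_at, with values at 1 time. The fit was tested on simulated data with 200 changed probe sets. The p-values were adjusted by the Benjamini-Hochberg method over all probe sets tested in the contrast. All members were named, with the largest called differences of the nitrogen list. For likeness, the asparagine synthetase and the NAD-type glutamate dehydrogenase probe set of highest mean intensity were used. The reference tables give no descriptions, so the nitrogen and marker lists come from the held rows, which hold no leaf senescence marker of the list sought. Members and lists were chosen with earlier results of these data known. Other scalings, floors, filters, samples in the fit and single left-out arrays were tried. No sequences were used here. The labels and the paper differ in the number of larvae and the kind of bag, and the labels also name Cy3 and Cy5 dyes for what the array platform reads in 1 colour.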

Additional observations from a re-analysis of the deposited data

Results flagged for a closer look

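A test of the difference between the responses at 2 times marked 7 results. Hours of feeding and time of day cannot be told apart in these differences. The response at 12 h exceeded that at 6 h by 6.81 on the log2 scale in Gra.1559.1.A1_at, by 3.71 in Ghi.10655.1.S1_s_at, by 3.63 in Gra.1614.2.S1_x_at, by 2.89 in Ghi.1436.1.S1_at and by 2.32 in Ghi.1436.1.A1_s_at, which are the 5 asparagine synthetase probe sets with values at both times. It exceeded that at 6 h by 3.06 in Ghi.6500.1.S1_at, a putative glutamate dehydrogenase. The response at 24 h less that at 12 h was -2.29 in Gra.2231.1.S1_s_at, the second asparagine synthase 1 probe set. Groups of 3 arrays are too small for a test of single outlying arrays.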

How the results depend on the processing

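The counts of members called at 6, 12 and 24 h, and of those whose response grew from 6 to 12 h, stayed within 1.5 times under quantile normalization, median centring, a floor at the 20th percentile, a pseudocount of 32, a filter that left out the dimmest probe sets by mean intensity, a fit on the arrays of the times compared, and each of 24 fits without 1 array (5 to 6, 11 to 11, 12 to 12 and 5 to 6 members without 1 array). For the response at 24 h less that at 12 h, members called higher were 1 with the floor and with the pseudocount, against 0, and members called lower were 3 with the floor, 2 with the pseudocount and 0 with the filter, against 1. Leaving out 1 array gave 0 to 1 higher and 0 to 3 lower. In control leaves, members lower at 12 than at 6 h were 1 with the floor against 2, and 1 to 3 without 1 array. Members higher at 24 than at 12 h were 0 with only the arrays of those times against 1, and 0 to 2 without 1 array, and members lower were 0 to 1. The cause of these shifts was not tested.

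Same-numbered arrays of CBW-damaged and control leaves did not deviate together at all times: their correlations ranged over -0.19 to 0.22 at 6 h, 0.19 to 0.52 at 12 h, 0.10 to 0.48 at 24 h and -0.06 to -0.01 at 48 h. Every pair exceeded 0.1 at 12 h alone, and no source says that a number marks a shared batch, so the numbers were not taken to pair the arrays. With the replicate number within each time as a block, 5, 11 and 12 members were called higher at 6, 12 and 24 h and 6 had a larger response at 12 than at 6 h, and between 12 and 24 h the response was higher in 1 and lower in 2, where Ghi.6500.1.S1_at (-2.45, adjusted p = 0.0285) and GhiAffx.5714.1.A1_at (1.57, adjusted p = 0.0486) passed limma's test beside Gra.2231.1.S1_s_at. In the nitrogen list Ghi.3652.1.S1_s_at at 6 h was then not called, and Ghi.1295.1.S1_s_at at 12 h was. The block could not be fitted to comparisons between times of control leaves, since each block lies within a time.

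Values that changed sign were not called. With quantile normalization GhiAffx.5714.1.A1_at was 0.00974 at 6 h and the change in response of Ghi.5259.1.A1_x_at from 6 to 12 h was -0.0133. With median centring GhiAffx.5714.1.A1_at was 0.0206 at 6 h and the change of GhiAffx.25253.1.S1_at from 12 to 24 h was 0.00271. That of GhiAffx.25253.1.S1_at from 6 to 12 h was -0.84 with the floor and -0.12 with the pseudocount, and that of Ghi.1436.1.A1_s_at from 12 to 24 h was -0.0706 with the floor. Without 1 array, GhiAffx.5714.1.A1_at spanned -0.31 to 0.10 at 6 h and -0.56 to 0.18 at 12 h, Gra.1559.1.A1_at -1.12 to 0.0697 at 6 h and Ghi.1436.1.S1_at -0.20 to 0.69 at 6 h. Without 1 array the change in response from 6 to 12 h spanned -0.50 to 0.24 in GhiAffx.5714.1.A1_at, -0.17 to 1.11 in GhiAffx.25253.1.S1_at and -0.0686 to 0.33 in Ghi.5259.1.A1_x_at. From 12 to 24 h it spanned -1.15 to 0.25 in Ghi.10655.1.S1_s_at, -0.0800 to 1.03 in Ghi.1436.1.A1_s_at, -0.39 to 0.80 in Ghi.1436.1.S1_at and -0.98 to 0.68 in GhiAffx.25253.1.S1_at. At 48 h Ghi.3172.1.A1_at and GraAffx.27366.1.S1_at of the nitrogen list were -0.000193 with the floor, since all their values lie under it. Arrays give no depth, and control intensities of several members lie near the lowest of their arrays. The size of their log2 differences therefore depends on how dim values are treated, and was smaller with the floor.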
